A study of Homo sapiens with 4 samples.

Results

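The 10 genes described here are the markers and transcription factors by which epithelial and mesenchymal cell states are usually told apart: CDH1, EPCAM, CDH2, VIM, FN1, ZEB1, ZEB2, SNAI1, SNAI2 and TWIST1. They were taken by name from the gene probes of an Agilent array that carries 43317 gene names, with every probe of each gene kept, which gave 17 of 58201 gene probes. The array was hybridised with Cy3-labelled RNA from cultures of HCT116, a colorectal cancer line, and A549, a lung cancer line. Each line had been transfected, with the lipid reagent Dharmafect1, with the microRNA miR-891b or with NC1, a negative control. Each line therefore gave an NC1 group and a miR-891b group, with 1 array from 100 ng of total RNA in each of the 4. The title of the series places the experiment in work on PSAT1, an enzyme of serine synthesis, and vesicle release. The time after transfection and the dose of RNA are not given in the sources used here. All groups share the transfection procedure, and no untransfected cells were analysed here.

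Epithelial-mesenchymal transition is the programme by which a cell held to its neighbours by E-cadherin becomes a motile cell with a vimentin skeleton. The transcription factors of the ZEB, SNAI and TWIST families bind E-box sequences in promoters such as that of CDH1 and repress them, and microRNAs of the miR-200 family in turn repress ZEB1 and ZEB2. In carcinoma lines the programme is often partial, so that a line can hold epithelial and mesenchymal markers together. A549 is known as a line with strong vimentin that keeps E-cadherin, and HCT116 as a more epithelial line.

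The transfected microRNA is shown because 2 of the 4 comparisons are about it. Its mature sequence in the RefSeq table (GRCh38.p14, chrX:146001100-146001121, minus strand, 22 bases) is given with bases 2 to 8, the seed, in capitals.
hsa-miR-891b: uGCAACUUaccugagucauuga
The match to these 7 bases in a transcript reads AAGTTGC. None of the 17 probes of the 10 genes held it on the strand printed in the array design, against 229 of all 58201 gene probes (0.393%). The shorter match AGTTGC was in 0 of the 17 and in 684 of all gene probes (1.18%). A probe covers 60 bases of a transcript, so the rest of each transcript was not searched.

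The 3 promoters below belong to genes whose signal was higher in A549 than in HCT116, described further on. They are the 250 bases before the most upstream RefSeq start of each gene (GRCh38.p14), 5′ to 3′ on the strand of the gene. Capitals mark the E-box CAGGTG or its reverse complement CACCTG, and the GC box GGGCGG or its reverse complement CCGCCC.
VIM, chr10:17227991-17228240, plus strand: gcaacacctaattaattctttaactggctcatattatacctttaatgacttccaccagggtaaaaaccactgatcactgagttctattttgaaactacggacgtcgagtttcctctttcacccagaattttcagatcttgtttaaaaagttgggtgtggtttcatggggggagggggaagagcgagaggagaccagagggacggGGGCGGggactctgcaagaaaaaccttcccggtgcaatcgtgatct
CDH2, chr18:28177131-28177380, minus strand: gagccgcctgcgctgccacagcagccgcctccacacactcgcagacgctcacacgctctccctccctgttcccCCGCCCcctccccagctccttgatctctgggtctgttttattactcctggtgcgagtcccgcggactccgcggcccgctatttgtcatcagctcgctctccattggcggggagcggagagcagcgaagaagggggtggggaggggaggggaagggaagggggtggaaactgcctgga
ZEB1, chr10:31318167-31318416, plus strand: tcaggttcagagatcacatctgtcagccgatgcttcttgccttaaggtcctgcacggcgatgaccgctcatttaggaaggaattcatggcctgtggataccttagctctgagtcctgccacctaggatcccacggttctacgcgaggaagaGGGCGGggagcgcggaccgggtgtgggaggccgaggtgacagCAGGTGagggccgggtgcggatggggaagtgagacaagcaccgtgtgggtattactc
Of these, the ZEB1 promoter held an E-box, 57 bases before the start, and each of the 3 held 1 GC box. The promoter of FN1, also higher in A549 by a bound, is not printed and held 0 E-boxes and 6 GC boxes. The RefSeq table had promoters for 5 of the 10 genes (CDH2, VIM, ZEB1, ZEB2 and FN1), with 12 starts in all, of which 7 were of ZEB1. An E-box was in 2 of these 12 windows, both of ZEB1, and in 6143 of all 35116 windows of that length (17.5%). The GC box was in at least 1 window of 4 of the 5 genes, and in 42.6% of all windows. These matches describe letters in a window and are not binding sites.

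On the 4 arrays between 44.7% and 50.3% of gene probes were well above background, by the mark that the scanner software sets, and the signal at the 75th percentile lay between 54.9 and 74.8 intensity units. No gene spot was saturated. Both HCT116 arrays lay on 1 slide and both A549 arrays on another, so line and slide cannot be told apart, while miR-891b and NC1 were always compared within a slide. Areas of stray signal covered 10.5% of gene spots on HCT116 miR-891b and at most 2.19% on the other arrays. They touched 2 of the 17 probes, as given beside CDH1 and FN1 below. Of 6 genes listed as A549 markers, 5 were measured in both lines on the NC1 arrays and all 5 were at least 2-fold higher in A549. Of the 4 measured on both HCT116 arrays, 1 was 2-fold or more higher with miR-891b and 0 were lower. This was AKR1B10, higher by 4.47, and on the miR-891b arrays it was still higher in A549 by 7.51. Of 5 listed for HCT116, CDX2, CLDN7 and CLDN3 were higher in HCT116, GPA33 was above background on no array, and LGALS4 was at least 18.3-fold higher in A549, against its listing. Of 10 fibroblast markers, 2 were well above background on each HCT116 array, and in A549 4 were with NC1 and 5 with miR-891b. COL1A2, COL3A1, DCN, FAP and POSTN were above background on no array, and COL1A1 and PDGFRB were on all 4, with NC1 differences of -0.42 and -0.89 between the lines. LUM was at least 23.9-fold higher in A549 on the NC1 pair and at least 79.1-fold on the miR-891b pair, and changed by 2.14 with miR-891b in A549. THY1 was at least 4.22-fold and at least 1.54-fold higher in A549 and changed by -1.04 there, and PDGFRA passed the background mark on A549 miR-891b alone. The part of such cells or genes in the values below was not tested.

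Of the 17 probes, 14 were well above background on at least 1 array, 6 on all 4 and 3 on none. CDH1, VIM, EPCAM, ZEB1, SNAI1 and TWIST1 were measured on all 4 arrays. A level is the log2 signal of a probe minus the 75th percentile of its array, so a probe at 0 is as bright as that percentile. Levels of different genes come from different probes and are not ranked against each other. There is no replicate array. The errors given with differences are the scanner software's own estimates for the spots, and over probes spotted at least 5 times the log2 difference between 2 arrays varied from spot to spot with a median SD of 0.061 to 0.071. Neither covers variation between cultures.

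**Figure D1:**
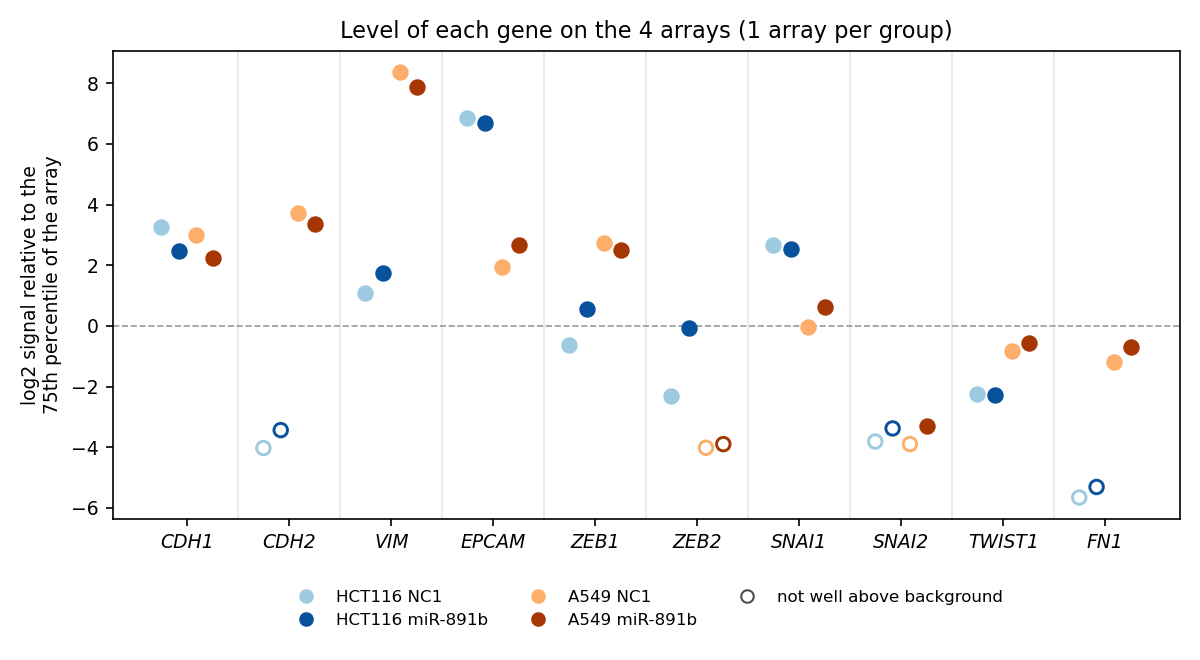
Level of each of the 10 genes on the 4 arrays, as log2 signal relative to the 75th percentile of the array (dashed line at 0), with 1 point per array and open circles where the probe was not well above background. CDH2 and FN1 are open in HCT116 and filled in A549, CDH1 lies between 2.23 and 3.25 on all 4 arrays, and VIM is at 8.37 and 7.87 in A549, far above its HCT116 points.

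CDH1 encodes E-cadherin, the adhesion molecule of epithelial junctions, and it was well above background in both lines. Its probe lies at hg19 chr16:68869214-68869273 on the plus strand. The signal was 521 (NC1) and 313 (miR-891b) in HCT116, against 601 and 347 in A549. Both miR-891b arrays were below both NC1 arrays. The lines lay close together, with A549 minus HCT116 differences of -0.24 on the NC1 arrays and -0.23 on the miR-891b arrays, each with an estimated error of 0.20.

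EPCAM encodes a surface glycoprotein of epithelial cells, and its signal was far higher in HCT116. Its probe lies at hg19 chr2:47613894-47613953 on the plus strand. The signal was 6361 (NC1) and 5937 (miR-891b) in HCT116, against 287 and 476 in A549. The HCT116 arrays were both above the A549 arrays, by 30.2-fold on the NC1 pair (log2 difference -4.92, estimated error 0.20) and 16.3-fold on the miR-891b pair (-4.02). In lysates of whole cultures, fewer cells with a transcript and less transcript per cell cannot be told apart.

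CDH2 encodes N-cadherin, the cadherin of mesenchymal and neural cells. Its brighter probe lies at hg19 chr18:25530936-25530995 on the minus strand. The signal was 982 (NC1) and 764 (miR-891b) in A549, and in HCT116 it was 3.37 and 5.27, not well above background. Where 1 line was dim, a bound was set against the weakest signal that passed the background mark on its array. Where the dim signal itself was higher than that, the value is a ratio to it and not a lower bound. CDH2 was at least 154-fold higher in A549 on the NC1 pair and at least 90.5-fold on the miR-891b pair. A second probe, at chr18:25532081-25532140, gave at least 44.0-fold and at least 32.7-fold.

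VIM encodes vimentin, the intermediate filament protein of mesenchymal cells. The 60 bases of its probe span 910 bases of genome, at hg19 chr10:17278347-17279256 on the plus strand. The signal was 117 (NC1) and 193 (miR-891b) in HCT116, against 24780 and 17394 in A549. A549 was higher by 155-fold on the NC1 pair (7.28, estimated error 0.20) and by 69.3-fold on the miR-891b pair (6.12). The NC1 difference ranked 16 from the highest among 19218 genes measured on both arrays.

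FN1 encodes fibronectin, a matrix protein. The single probe of that name is assigned to the transcript NM_054034 and spans 679 bases at hg19 chr2:216288217-216288895 on the minus strand, so it may not measure every FN1 transcript. The signal was 32.5 (NC1) and 45.9 (miR-891b) in A549, against 1.09 and 1.44 in HCT116, where it was not well above background. This FN1 transcript was at least 5.09-fold higher in A549 on the NC1 pair and at least 5.44-fold on the miR-891b pair. On HCT116 miR-891b the probe lay in an area where 19.7% of nearby dim spots were well above background, and its part in the value there was not tested.

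The transcription factors differed in direction between the lines. ZEB1, a zinc finger repressor of CDH1, gave signals of 35.4 (NC1) and 84.1 (miR-891b) in HCT116, against 496 and 421 in A549 at its brighter probe (hg19 chr10:31818063-31818122, plus strand). Both A549 arrays were above both HCT116 arrays, by 10.3-fold on the NC1 pair (3.36, estimated error 0.21) and 3.84-fold on the miR-891b pair (1.94). A second ZEB1 probe, 1.802 kb away, did not pass the background mark on HCT116 NC1. Against its dim signal there the ratio was 15.7-fold (3.97, estimated error 0.37), which is not a lower bound. On the miR-891b pair its difference was 1.58.

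ZEB2, the paralogue of ZEB1, gave opposite directions at different probes. At the probe with the highest mean (hg19 chr2:145182363-145182422, minus strand) the signal was 11.1 on HCT116 NC1, 53.9 on HCT116 miR-891b, and 4.62 and 4.99 on the A549 arrays, not well above background. This made ZEB2 at least 3.13-fold higher in HCT116 on the NC1 pair. On the miR-891b pair the ratio to its dim A549 signal was 14.1-fold (-3.81, estimated error 0.40), which is not a lower bound. At a second probe of the same transcript, 36.102 kb away, the signal was 3.12 and 1.76 in HCT116, not well above background, and 7.65 and 11 in A549. There ZEB2 was at least 1.20-fold and at least 1.36-fold higher in A549. The remaining probe, assigned to a noncoding transcript, was above background on no array. The direction of ZEB2 between the lines is therefore unsettled.

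SNAI1, which encodes Snail, another zinc finger repressor of CDH1, was higher in HCT116. The signal of its probe (hg19 chr20:48605170-48605229, plus strand) was 346 (NC1) and 328 (miR-891b) in HCT116, against 73.1 and 114 in A549. HCT116 was above A549 by 6.44-fold on the NC1 pair (-2.69, estimated error 0.21) and 3.74-fold on the miR-891b pair (-1.90).

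TWIST1, a basic helix-loop-helix factor, was low but measured on every array. At its brightest probe (hg19 chr7:19156462-19156521, minus strand) the signal was 11.6 (NC1) and 11.7 (miR-891b) in HCT116, against 42.4 and 50.1 in A549. A549 was higher by 2.68-fold (1.42, estimated error 0.25) and 3.30-fold (1.72, estimated error 0.27). A second probe was well above background on A549 miR-891b alone. A further 2 probes carry the name but lie 115.744 kb away, are assigned to the noncoding transcript XR_428085 and were above background on no array.

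SNAI2, which encodes Slug, was at the limit of detection. Its probe (hg19 chr8:49830710-49830769, minus strand) gave signals of 3.91 (NC1) and 5.48 (miR-891b) in HCT116, against 5.03 and 7.5 in A549. It was well above background on A549 miR-891b alone, and no difference between the lines was measurable.

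Counted together, 6 of the 10 genes were measured in both lines on the NC1 arrays. VIM, ZEB1 and TWIST1 (3 genes) were 2-fold or more higher in A549, where 11.1% of all genes measured were, and EPCAM and SNAI1 (2 genes) were 2-fold or more lower, where 16.2% were. The same genes passed 2-fold in the same directions on the miR-891b arrays, against 11.4% and 20.7% of all genes. Of the genes above background in 1 line only, CDH2 and FN1 were at least 2-fold brighter in A549 on both pairs, where 27.5% of such genes were on the NC1 arrays and 23.2% on the miR-891b arrays. ZEB2, by its brighter probe, was at least 2-fold brighter in HCT116 on the NC1 pair, where 23.6% of such genes were. On the miR-891b pair it passed 2-fold by its ratio to the dim signal. There 28.1% of such genes passed 2-fold towards HCT116 by bound or ratio. Among all genes measured on the NC1 arrays, VIM lay at percentile 99.9, ZEB1 at 99.0, TWIST1 at 93.9, CDH1 at 43.0, SNAI1 at 2.58 and EPCAM at 0.429. The median difference of the 6 genes was 0.59, against -0.10 for all genes. TWIST1 did not reach 2-fold under normexp background correction with quantile normalization (0.40 on the NC1 pair and 0.55 on the miR-891b pair) or with its probes averaged (0.28 and 0.49). The same correction brought the measured differences to 0.53 and 0.77 for FN1 and to -0.21 and -0.93 for ZEB2.

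**Figure D2:**
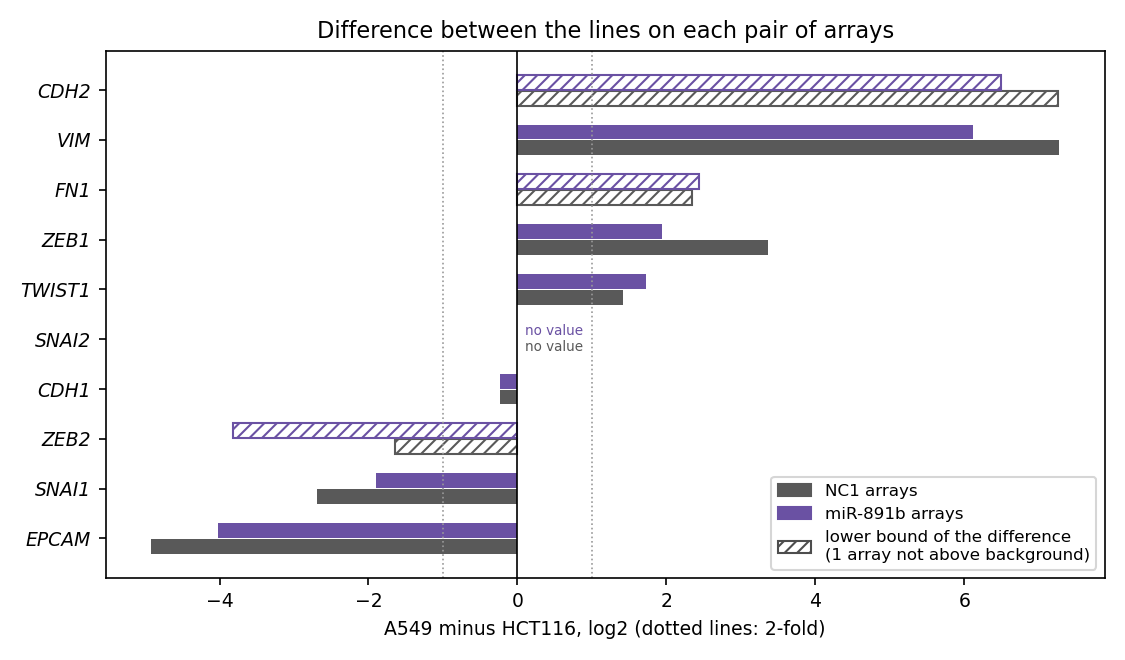
A549 minus HCT116 difference in log2 units for each of the 10 genes, with grey bars for the NC1 arrays and purple bars for the miR-891b arrays, and dotted lines at 2-fold. Hatched bars are used where the probe was above background in 1 line only. They are lower bounds, except the ZEB2 bar of the miR-891b arrays, which is a ratio to the dim signal. CDH2, VIM, FN1, ZEB1 and TWIST1 point towards A549, and EPCAM, SNAI1 and ZEB2 (by its brighter probe) towards HCT116.

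With the pair of arrays of each line taken as its replicates, the lines could be tested in an additive limma model with the transfection as a second term and 1 residual degree of freedom per gene. The labels do not say that the arrays of a line came from separate cultures. The 2 arrays of a line had different transfections, so they are not replicates of 1 condition. The 1 residual degree of freedom is how far the miR-891b change differed between the lines. It is combined with a spread shared over all 22712 genes (prior of 3.18 degrees of freedom). The p-values rest on this and do not measure variation between cultures. SNAI2 did not enter, as it was above background on 1 array. CDH2, FN1 and ZEB2 entered only through the line in which they were bright and so had to differ. They are left out of the counts here, and the bounds and ratios above are their measure. Of the 6 genes measured on all 4 arrays, VIM, ZEB1 and TWIST1 were called higher in A549 at a Benjamini-Hochberg adjusted p under 0.05 over 22712 genes, where 15.5% of all genes were called higher. EPCAM and SNAI1 were called lower, where 16.4% of all genes were. Both shares are over all 22712 genes, of which 18064 were measured on all 4 arrays. The rest include genes that, like CDH2, entered only through 1 line, so the shares cover a wider set than the 6 genes. VIM differed by 6.70 (SE 0.37, limma adjusted p = 0.00135), EPCAM by -4.47 (SE 0.32, limma adjusted p = 0.00229), SNAI1 by -2.29 (SE 0.30, limma adjusted p = 0.0103), ZEB1 by 2.65 (SE 0.42, limma adjusted p = 0.0161) and TWIST1 by 1.57 (SE 0.24, limma adjusted p = 0.0154). CDH1 did not pass (-0.23, SE 0.23, limma adjusted p = 0.472). TWIST1 was no longer called with its probes averaged (limma adjusted p = 0.290) or under normexp background correction with quantile normalization.

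CDH1 was lower on the miR-891b array in both lines, by nearly the same amount. The miR-891b minus NC1 change was -0.79 in HCT116, which left 57.8% of the control signal, and -0.78 in A549, which left 58.2%, each with an estimated error of 0.20. The probe of CDH1 is printed on 10 spots of each array. In HCT116 their signals were 521 ± 22.3 (SD over 10 spots) with NC1 and 313 ± 16.4 with miR-891b, and in A549 602 ± 28.4 and 348 ± 14. In each line all 10 spots of the miR-891b array were dimmer than every spot of the NC1 array. Over spots in the same position the change ranged from -0.97 to -0.70 in HCT116 and from -0.89 to -0.68 in A549. These spots measure 1 RNA sample per array, so their spread is that of the measurement and not of the cultures. On A549 miR-891b, 1 of the 10 spots lay in an area of stray signal, and without such spots the A549 change was still -0.78.

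**Figure D3:**
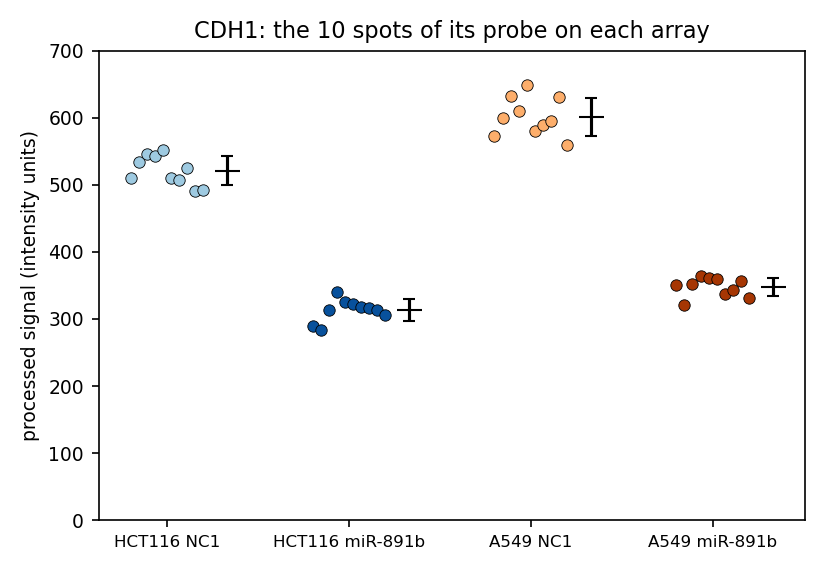
Processed signal, in intensity units, of the 10 spots of the CDH1 probe on each of the 4 arrays (points), with the mean and SD over spots beside them (bars). All miR-891b spots lie between 284 and 364, and all NC1 spots between 491 and 648.

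Among all genes this change ranked differently in the 2 lines, though its size was nearly the same. It lay at percentile 2.12 of 19105 genes measured in HCT116, where all changes had an SD of 0.38, and at percentile 9.48 of 21336 in A549, where the SD was 0.61. In the additive limma model CDH1 changed by -0.79 (SE 0.23), with an unadjusted p of 0.0254 and a limma adjusted p of 0.793. It was the only one of the 9 genes in the model with an unadjusted p under 0.05. Over all genes 0% were called for miR-891b in this model at an adjusted p under 0.05, with 1214 of 22712 genes at an unadjusted p under 0.05. In simulated data the model called 0 of 40 genes changed 2-fold, so the 0% does not show an absence of change.

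The changes of the other genes are given line by line, and their difference between the lines was not tested. In HCT116, ZEB1 was 2.29-fold higher with miR-891b (1.19, estimated error 0.21). Its second probe, below the background mark with NC1, gave 4.29-fold against its dim signal (2.10, estimated error 0.38). ZEB2 was 4.69-fold higher at its brighter probe (2.23, estimated error 0.28), and its other probes were not above background in HCT116. These were the 2 genes of 7 measured that were 2-fold or more higher in HCT116, where 1.16% of all genes were, and 0 were 2-fold or more lower, where 0.843% were. VIM was higher by 0.66, at percentile 97.1. EPCAM (-0.15), SNAI1 (-0.13) and TWIST1 (-0.05) changed by less than the estimated error of their difference, 0.20 to 0.30. CDH2, FN1 and SNAI2 were not above background on either HCT116 array. The median change of the 7 genes was -0.05, against -0.04 for all genes. Under normexp background correction with quantile normalization, ZEB1 changed by 0.68 and ZEB2 by 0.71, so neither passed 2-fold.

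In A549, none of the 8 genes measured was changed 2-fold or more, where 4.01% of all genes were higher and 5.57% lower. EPCAM was higher by 0.74 (estimated error 0.20, percentile 92.5) and SNAI1 by 0.66 (estimated error 0.21, percentile 90.8). The FN1 transcript was higher by 0.51 and TWIST1 by 0.25. VIM was lower by an amount that depended on the scaling, at -0.50 in the main setting and -0.07 under quantile normalization. CDH2 changed by -0.35 at its brighter probe and -0.02 at the other, and ZEB1 by -0.23 and -0.29. ZEB2, at the probe measured in A549, changed by 0.60 (estimated error 0.35). SNAI2, below the background mark with NC1, changed by 0.59 against its dim signal (estimated error 0.41). Under normexp background correction with quantile normalization its change was 0.08. The median of the 8 genes was 0.01, against -0.06 for all genes.

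**Figure D4:**
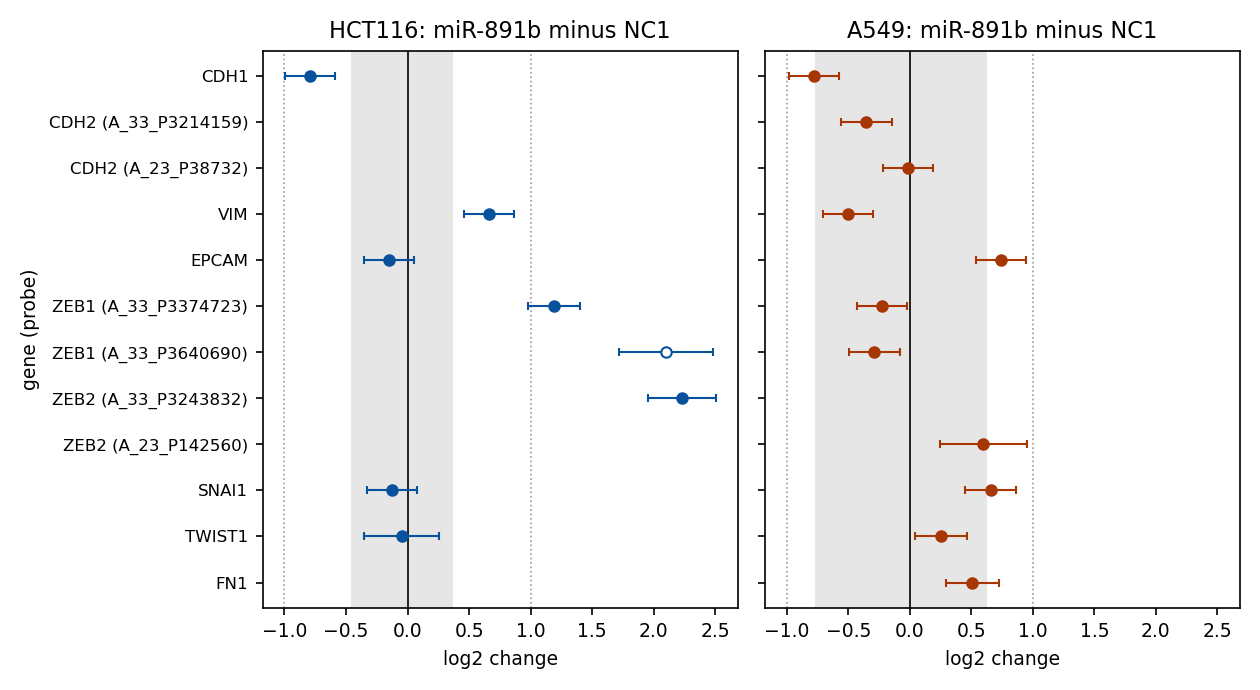
Log2 change, miR-891b minus NC1, for each probe measured in HCT116 (left) and A549 (right), with bars for the estimated error of the scanner software. The grey band holds the 10th to 90th percentile of all genes, the dotted lines mark 2-fold, and the open circle is a ZEB1 probe that was not above background on HCT116 NC1. CDH1 lies at -0.79 and -0.78, and ZEB1 and ZEB2 lie beyond 2-fold in HCT116.

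The sizes of the line differences on the 2 pairs of arrays follow from these changes. VIM, EPCAM, ZEB1 and SNAI1, 4 of the 5 genes past 2-fold between the lines, had a smaller difference on the miR-891b arrays than on the NC1 arrays, and TWIST1 had a larger one. Among all 4962 genes past 2-fold between the lines on the NC1 arrays, 63.5% had a smaller difference on the miR-891b arrays. Both sets were chosen by their NC1 difference, a choice that by itself favours smaller differences on the other pair.

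Other genes of the epithelial and mesenchymal programmes were listed to set the 10 genes beside. The epithelial list held 25 genes of junctions, keratins and epithelial splicing and transcription factors, of which 24 were found on the array. All 24 were well above background on both HCT116 arrays, and in A549 17 were with NC1 and 15 with miR-891b. On the NC1 arrays 10 of the 17 measured in both lines were 2-fold or more lower in A549, against 16.2% of all genes, and 1 was higher, against 11.1%. The latter was KRT18 (1.08), a keratin of simple epithelia. A further 7 were 2-fold or more brighter in HCT116, by bound or by ratio to the dim signal, and not above background in A549. Of all genes above background in 1 line, 23.6% were. The median difference of the 17 was -1.83, against -0.10 for all genes. On the miR-891b arrays 8 of 15 were lower (20.7% of all genes), 0 were higher (11.4%), 9 more were brighter in HCT116 by bound (28.1%), and the median was -1.27 against -0.19.

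The genes of this list with the largest differences were MAL2, a protein of apical transport, RAB25, a GTPase of epithelial recycling endosomes, and CDH3, which encodes P-cadherin. MAL2 was at least 683-fold higher in HCT116 on the NC1 pair and at least 572-fold on the miR-891b pair, and its probe lay in an area of stray signal on HCT116 miR-891b. RAB25 was at least 260-fold and at least 185-fold higher in HCT116. CDH3 differed by -9.24 on the NC1 pair and was at least 465-fold higher in HCT116 on the miR-891b pair.

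The mesenchymal list was less one-sided. On the NC1 arrays 17 of its 30 genes were measured in both lines, of which 6 were 2-fold or more higher in A549, against 11.1% of all genes, and 1, FOXC1 (-2.90), was lower, against 16.2%. The median was 0.54, against -0.10 for all genes. By bound, 3 more were brighter in A549 (27.5% of all genes above background in 1 line) and 1 in HCT116 (23.6%). The latter was SNAI3, at least 7.51-fold, named here after its value was seen. TGFBI, a matrix protein induced by TGF-beta, was at least 2939-fold higher in A549 on the NC1 pair and at least 1694-fold on the miR-891b pair. COL5A1, a fibrillar collagen chain, differed by 6.31 and 5.27, and TCF4, an E-protein partner of TWIST1, was at least 66.1-fold and at least 47.7-fold higher in A549. On the miR-891b arrays 2 of 17 were 2-fold or more higher in A549 (11.4% of all genes) and 1 was lower (20.7%), with a median of 0.44 against -0.19. On that pair 5 were brighter in A549 by bound (23.2%) and 1, SNAI3, was brighter in HCT116 (28.1%), at least 3.73-fold.

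With miR-891b, 0 of the 24 epithelial and 0 of the 18 mesenchymal genes measured in HCT116 changed 2-fold or more, where 1.16% of all genes were higher and 0.843% lower. Counts of 0 are near that background. Their medians were -0.30 and -0.08, against -0.04 for all genes. In A549, where 4.01% of all genes were higher and 5.57% lower, 2 of 15 epithelial genes passed 2-fold. DSC2, a desmosomal cadherin, was higher by 1.90, and KRT18 changed by -1.14. The DSC2 probe lay in an area of stray signal on at least 1 of the 4 arrays (17.8% of nearby dim spots), and its part in the value was not tested. Of 21 mesenchymal genes in A549, TNC, a matrix glycoprotein (1.15), and ITGA5, a fibronectin receptor subunit (1.03), were higher, and TAGLN, an actin-binding protein (-1.60), and FOXC1, a forkhead factor (-1.05), were lower. FBN1, which encodes the matrix protein fibrillin, passed the background mark in A549 with miR-891b alone and was at least 3.54-fold higher than with NC1, and is named here after its value was seen. The medians in A549 were -0.03 for the epithelial and -0.38 for the mesenchymal genes, against -0.06 for all genes.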

How the data were processed

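Gene expression was measured in 4 samples on 1-colour Agilent arrays, and their titles gave 4 groups of 1 array each. The scans were quantified by the authors with Agilent Feature Extraction 11.5.1.1, per the submitters' processing notes and the file headers. Per the file headers, the processed signals are linear intensity values from which the software had removed background and spatial trends, without scaling the arrays to each other. The authors also deposited a table of log2 values and did not state how it was made. It differed from the main values here by a median of at most 0.0069 per array, and served as an alternative. Its column medians lay between -3.80 and -3.60.

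Spots marked as outliers were dropped, log2 signals of the remaining spots were averaged for each probe, and from each array its 75th percentile over gene probes was subtracted. The probe with the highest 4-array mean stood for its gene, and the other probes of the 10 genes are given too. A gene counted as measured where both arrays compared passed the background mark, and was called by size at 2-fold. Where it was above background on 1 array only, the bright value was set against the higher of the dim probe's value and the lowest value well above background on that array. The additive model used limma 3.58.1 in R 4.3.3 (lmFit, eBayes, Benjamini-Hochberg) and the 22712 genes well above background on at least 2 of 4 arrays. It was tested on simulated data. The number of arrays limits the precision. Stray areas were those where at least 10% of dim spots within 10 rows and columns were well above background on that array only. The rest was done in Python 3.11.15 with pandas 2.3.3.

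The genes named by rule are the 10 genes, those of the epithelial and mesenchymal lists changed 2-fold or more by miR-891b with both arrays above background, and the 3 of these lists with the largest line difference in each direction past 2-fold on both pairs of arrays. Markers of the lines and of fibroblasts are named as a check of the samples. The members and lists were chosen with earlier results of these data known. Names come from the array design, and those of the 10 genes are current RefSeq symbols. Whether a probe lies in an exon or an untranslated region was not worked out, as no genome of the probes' build (hg19) was used here. The alternatives tried were quantile normalization with and without normexp correction (offset 50), median scaling, the authors' values, other filters on dim probes, the mean over probes, leaving out stray areas, keeping marked spots, other fold thresholds, a fit by probe and a fit without the transfection term.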

Additional observations from a re-analysis of the deposited data

Results flagged for a closer look

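Changes with miR-891b that had opposite signs in the 2 lines were picked out among the genes measured on all 4 arrays. With 1 array per group none of these differences was tested. VIM changed by 0.66 in HCT116 and -0.50 in A549, a difference (A549 minus HCT116) of -1.16. ZEB1 changed by 1.19 and -0.23, a difference of -1.42. EPCAM changed by -0.15 and 0.74, a difference of 0.90. SNAI1 changed by -0.13 and 0.66, a difference of 0.79. TWIST1 changed by -0.05 and 0.25, a difference of 0.30. The HCT116 changes of EPCAM, SNAI1 and TWIST1 were within their estimated errors of 0.20, 0.20 and 0.30. The A549 change of VIM was -0.07 under quantile normalization. The A549 change of ZEB1 was close to its estimated error of 0.20. It was -0.15 under quantile normalization, -0.09 with normexp correction as well, and -0.29 at the second ZEB1 probe. These opposite signs are therefore not established. Among 18064 genes measured on all 4 arrays, these differences lay at percentile 4.20 for VIM, 2.44 for ZEB1, 93.7 for EPCAM, 92.1 for SNAI1 and 74.7 for TWIST1. For CDH1 the changes differed by 0.01.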

How the results depend on the processing

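The samples carry no replicate numbers and each group holds 1 array, so replicates could be neither paired by number nor left out. The limma model compared miR-891b with NC1 within the lines, with the line as a term. Over 35 values of single genes, 242 alternative values were computed, of which 210 stayed within the estimated error, 32 moved beyond it and 0 of the called values changed sign. The HCT116 change of TWIST1, -0.05, became 0.06 with the mean over probes. Without the filter on dim probes the genes past 2-fold between the lines numbered 8 instead of 5 on both pairs of arrays, with CDH2, ZEB2 and FN1 added. For miR-891b in HCT116 the count of 2 became 0 under normexp with quantile normalization, 1 with the mean over probes (ZEB1), 1 with the filter on mean signal (ZEB1), 4 at 1.5-fold (CDH1, VIM, ZEB1, ZEB2) and 1 at 3-fold (ZEB2). In A549 the count of 0 became 3 at 1.5-fold (CDH1, EPCAM, SNAI1). In the limma model for the line, CDH2, FN1 and ZEB2 had to differ and are left out here too. VIM, EPCAM, ZEB1, SNAI1 and TWIST1 were called, as were 7249 of all 22712 genes. Some of the latter had to differ in the same way. TWIST1 was not called under normexp with quantile normalization or with the mean over probes. The filter on mean signal did not keep TWIST1. The calls of VIM, EPCAM, ZEB1 and SNAI1 held in each of these settings. Under normexp with quantile normalization the NC1 line difference was 4.02 for CDH2, 0.53 for FN1 and 0.40 for TWIST1. The median line difference of all genes on the miR-891b arrays moved by 0.16 under that setting and by 0.11 under quantile normalization and median scaling. The limma adjusted p of CDH1 for miR-891b lay between 0.595 and 0.836 over the alternatives. Low signal over background limits SNAI2, ZEB2, TWIST1 and FN1. The causes of these shifts were not tested.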
